A study of Ovis aries with 91 samples.

Results

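Isolated heart muscle cells of the left atrial appendage were compared between sheep in chronic atrial fibrillation and control sheep, over all genes measured. The comparison covers 12 of the 91 samples of the series, chosen as the left appendage cardiomyocyte samples labelled chronic and those of control animals. They form 6 columns of log2 CPM (reads of a gene relative to all reads of its library, scaled as is usual for such data), 1 for each sheep, since 2 technical replicates had been merged in each. Of 13262 genes listed, 12279 had a mean of at least 0 log2 CPM over the 18 cardiomyocyte columns and were tested, and 983 were left out, with means down to -3.30. Close to that limit, 530 genes lay within 0.5 log2 units above it and 469 within 0.5 below it.

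The chronic group held sheep D16, D19 and D20, in which atrial fibrillation had been brought about with a pacing device in the right atrium and which are labelled as chronic. The control group held sheep C1, labelled control, and sheep S3 and S4, labelled sham. The column names of the deposited table call all 3 sham, and the labels do not say whether C1 was operated on. The series also holds sheep labelled transition, the state between control and chronic, the right appendage, whole tissue, and the posterior left atrium, which was not analysed here. The labels give no age, sex, breed or length of pacing. Each group had 3 sheep. The p-values rest on a spread within groups that was estimated over all cardiomyocyte columns. These include the right appendage and the transition sheep, so the spread is not that of the compared animals alone.

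Atrial fibrillation is a fast and disordered electrical rhythm of the upper chambers of the heart. Atrial cardiomyocytes that are driven at a high rate over a long time are known to change their ion channels, calcium handling, contractile apparatus and metabolism, which is called atrial remodelling, and remodelled muscle is known to keep the arrhythmia going. The left appendage is a muscular pouch of the left atrium, and cells isolated from it hold muscle cells enriched over the fibroblasts, vessel cells and immune cells of the wall. Genes carry Ensembl sheep identifiers here and 0 of them could be paired with a gene name, so neither the roles of single genes nor the purity of the cell isolation, which would be read from marker genes, could be given.

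Listed reads per left appendage library were 7160000 to 8600000 in chronic sheep and 8730000 to 12400000 in control sheep, and the factors by which the authors had scaled them were 0.908 to 0.953 in chronic and 0.959 to 1.08 in control sheep, so both depth and scaling moved with the state, and their part in the results was tested only as far as other scalings were tried. No pair of libraries within a group looked like 1 library deposited again, as the chi-square per degree of freedom of their reads was 11.1 to 13.5 between chronic and 14.5 to 34.3 between control sheep. On the first principal component of the 6 columns, with 40.6% of the variance, chronic sheep scored 27.4 (D20), 28.8 (D16) and 36.8 (D19), against -33.4 to -28.1 in control sheep. The second component, with 17.8%, set D20 at 34.1 apart from D19 at -20.9 and D16 at -11.4.

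In chronic sheep 471 genes rose and 467 fell relative to control sheep, which is 938 of 12279 genes or 7.64% of those tested (limma, Benjamini-Hochberg adjusted p of 0.05; 3.84% higher and 3.8% lower). The median increase among the genes that rose was 0.79 on the log2 scale, or 1.73-fold, and among those that fell the median change was -0.95, a chronic level 0.516 times that of control sheep. Over all genes tested the median change was -0.00677. The 2 directions were of nearly equal number under the authors' scaling, but with libraries scaled by their total reads 299 genes were higher and 760 lower, as the median change of all genes then shifted to -0.121. In samples of this kind, fewer cells of a type and less RNA of a gene in each cell cannot be told apart.

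Most changes were moderate in size. A change of at least 1 log2 unit, or 2-fold, was found for 153 genes that rose and 211 that fell, a change of at least 2 log2 units (4-fold) for 36 and 38, and of at least 3 (8-fold) for 10 and 7. The increases ran up to 7.85 and the decreases to -7.13, and both extremes belong to genes below the median level. The smallest changes past the test were 0.31 upward and -0.32 downward. The standard error of a change had a median of 0.23 over all genes and 0.20 over the called ones.

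**Figure D1:**
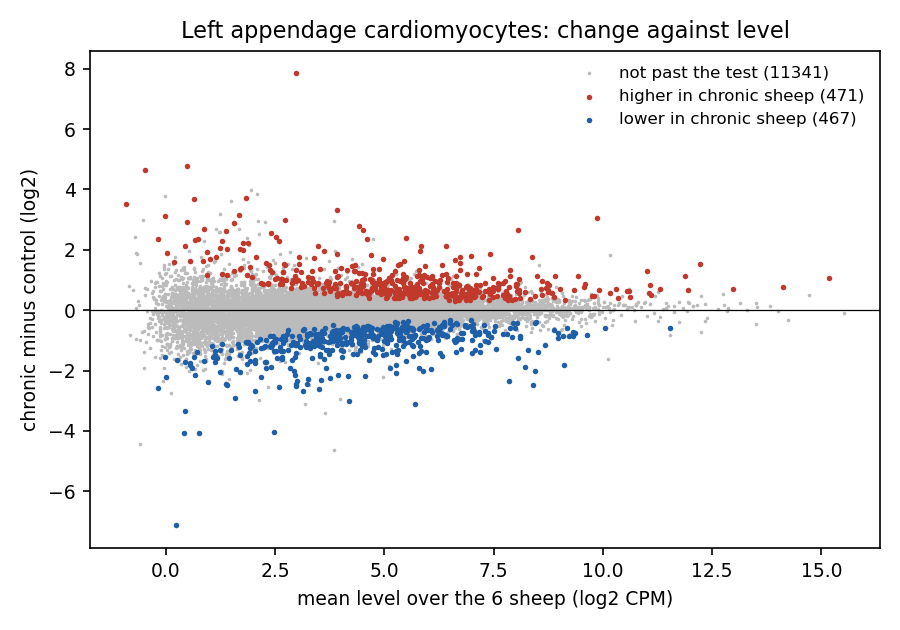
Change between chronic and control sheep (log2, vertical axis) against the mean level over the 6 sheep (log2 CPM, horizontal axis) for each of the 12279 genes tested in left appendage cardiomyocytes. The 471 genes that rose are red and the 467 that fell are blue. Some genes that did not pass changed as much, because the test also uses the spread of each gene. The spread of the changes narrows toward higher levels.

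Which changes could be called depended on the level of the gene, because low genes rest on few reads. The genes were split by level into 4 classes of equal size. In the lowest class (-0.91 to 2.34 log2 CPM) the median standard error was 0.43, and 44 genes rose and 62 fell, 3.45% of the class, with no called change smaller than 0.85. In the second class 68 rose and 115 fell (5.96%), and in the third class 120 rose and 135 fell (8.31%). The highest class (5.37 to 15.51 log2 CPM) had a median standard error of 0.15, and there 239 genes rose and 155 fell, 12.8% of the class, with changes down to 0.31. The plot of change against level shows the same pattern, with more increases than decreases among the highest genes and more decreases among the others. The levels are not scaled by gene length, so they do not rank genes by transcript number.

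The genes that rose had a median level of 5.83 log2 CPM in chronic and 4.99 in control sheep, and those that fell 4.12 in chronic and 5.02 in control sheep, against a median of 3.91 over all genes tested. In share of reads, the 471 genes that rose took 16.69% (D16), 18.17% (D19) and 16.65% (D20) of the listed reads in chronic sheep, against 9.131% (C1), 10.72% (S3) and 10.55% (S4) in control sheep. The 467 genes that fell took 2.265%, 2.051% and 2.211% in D16, D19 and D20, against 4.426%, 4.428% and 4.353% in C1, S3 and S4. These shares describe genes chosen for their difference between the same sheep and carry no test. In both shares the chronic and control sheep did not overlap.

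The called genes were also described animal by animal. They were chosen by a test on these same sheep, which favours genes with little spread among them, so the closeness of the sheep in these values is no result. Measured from the mean of the control sheep, the genes that rose had a median difference of 0.82 in D16 (interquartile range 0.55 to 1.18), 0.82 in D19 (0.61 to 1.25) and 0.72 in D20 (0.53 to 1.03). The genes that fell had a median difference of -0.88 in D16 (-1.27 to -0.64), -1.02 in D19 (-1.45 to -0.72) and -0.90 in D20 (-1.32 to -0.65). In the control sheep themselves these medians lay between -0.05 and 0.02. D19 stood farthest from the controls among the genes that fell, and D20, which the second principal component set apart, was the nearest among the genes that rose.

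**Figure D2:**
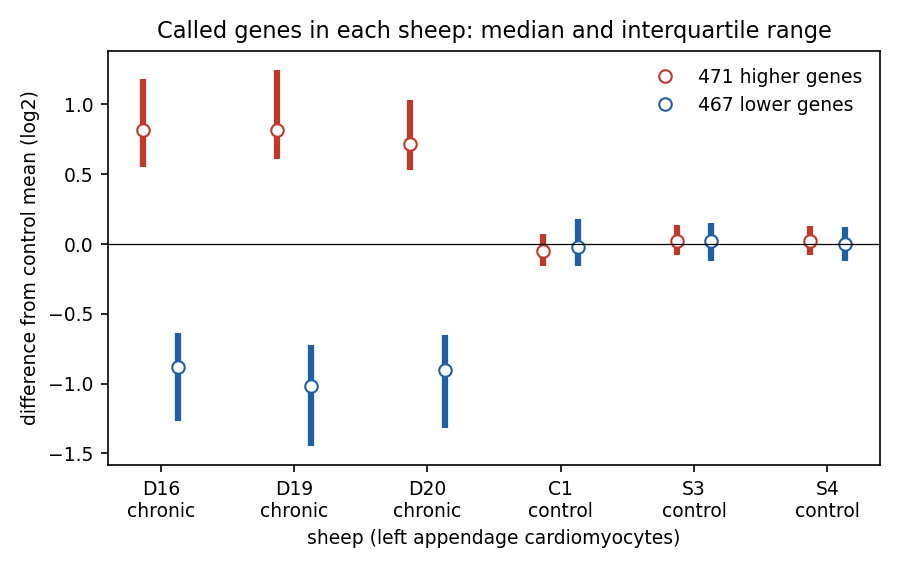
Median (circle) and interquartile range (bar) of the difference from the control mean (log2, vertical axis) in each sheep (horizontal axis, chronic sheep on the left), for the 471 genes that rose (red) and the 467 that fell (blue) in left appendage cardiomyocytes. The medians in D16, D19 and D20 are 0.72 to 0.82 upward and -1.02 to -0.88 downward, in genes chosen by a test on these same sheep, which favours genes in which they lie close together.

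The groups rarely overlapped for called genes. These were chosen by a test on the same sheep, so little overlap was close to given, and the gaps are a description. Among all genes tested, 2039 (16.6%) had every chronic sheep above every control sheep and 2038 (16.6%) had every chronic sheep below, and the test called 468 and 462 of these. Overlap between the groups remained for 3 genes that rose and 5 that fell. Between the nearest chronic and control sheep the gap had a median of 0.46 for genes that rose and 0.48 for genes that fell, and was at least 1 log2 unit for 52 and 63 of them.

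Spread between sheep was similar in the groups. The median SD over all genes was 0.212 in chronic and 0.204 in control sheep. Among the genes that rose it was 0.157 in chronic and 0.177 in control sheep, and among those that fell 0.218 and 0.21. The largest increases were an exception. Of the 36 genes with an increase of at least 2 log2 units, 8 had an SD above 1 among the control sheep, as did 4 of the 38 with such a decrease.

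The 20 largest increases ran from 2.44 to 7.85, with standard errors of 0.29 to 2.03, and 4 of these genes had a level above the median of all genes tested. All 20 had every chronic sheep above every control sheep, while 6 of them had an SD above 1 in the control sheep. The 20 genes with the largest decreases fell by 2.39 to 7.13, with standard errors of 0.26 to 1.09. Of these, 3 had a level above the median, 18 did not overlap between the groups, and 5 had an SD above 1 in the chronic sheep. In both sets the lack of overlap was again close to given, as the genes were called in the same sheep. The extremes of the ranking thus came mostly from low genes, and better measured changes were read from genes of higher level.

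For that reason single genes were named only when their level lay above the median of all genes tested and every chronic sheep lay beyond every control sheep, which 357 genes that rose and 289 that fell met. The 2 with the smallest p in each direction are described next. As they were chosen by their test in this comparison, the size of their change on the left is a description. Their values in the right appendage and in transition sheep entered the choice through the shared estimate of the spread and the filter on the mean, and the contrasts with the right appendage and with transition sheep also contain the left values by which the genes were chosen. Whole tissue libraries were not used to choose them, though they come partly from the same animals.

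ENSOARG00000006624 measured 8.34, 8.16 and 8.52 log2 CPM in chronic sheep D16, D19 and D20, against 6.35, 6.50 and 6.63 in control sheep C1, S3 and S4. Each chronic sheep stood well above each control sheep, with a gap of 1.53 between the nearest. Behind these levels were 2651, 1858 and 2666 reads in D16, D19 and D20 and 1098, 876 and 844 reads in C1, S3 and S4. The means were 8.34 ± 0.18 in chronic and 6.49 ± 0.14 in control sheep (SD, n = 3 each), and the change was 1.85 ± 0.20 (SE), a 3.59-fold increase (limma, Benjamini-Hochberg adjusted p = 9.69e-05). In log2 CPM, which is not scaled by length, the gene stood at percentile 93.5 of the genes tested. On the right it rose as well, by 1.65 ± 0.20 (limma adjusted p = 0.000526), with 8.08, 7.81 and 8.18 in chronic and 6.45, 6.11 and 6.57 in control sheep. The difference between the sides, 0.20 ± 0.20, did not pass (limma adjusted p = 0.684).

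ENSOARG00000004857 measured 7.92, 8.10 and 7.60 log2 CPM in D16, D19 and D20, against 6.21, 6.24 and 5.78 in C1, S3 and S4. The groups were 1.36 apart at their nearest, and D20 was the lowest of the chronic sheep. Reads numbered 1978, 1781 and 1417 in the chronic and 995, 732 and 470 in the control sheep. From means of 7.87 ± 0.25 in chronic and 6.08 ± 0.26 in control sheep (SD, n = 3 each) the change was 1.80 ± 0.20 (SE), a 3.47-fold increase (limma adjusted p = 0.000116). In right appendage cardiomyocytes the rise was smaller. There chronic sheep had 7.04, 6.45 and 6.93 and control sheep 6.59, 6.42 and 5.93, groups that overlap, and the change of 0.49 ± 0.20 did not pass (limma adjusted p = 0.161). The difference between the sides was 1.30 ± 0.21 and passed its own test (limma adjusted p = 0.0181). That call was lost without D16, D19, C1 or S3, where the difference was 1.40, 1.01, 1.23 and 1.33, and with no replicate block (limma adjusted p = 0.563).

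ENSOARG00000007984 fell furthest of the 4. Its levels were 3.18, 2.67 and 2.20 log2 CPM in D16, D19 and D20, against 6.0, 5.51 and 5.59 in C1, S3 and S4, so that the highest chronic sheep lay 2.33 below the lowest control sheep. In reads this is 74, 41 and 33 in chronic and 864, 442 and 412 in control sheep. The means were 2.69 ± 0.49 and 5.70 ± 0.26 in chronic and control sheep (SD, n = 3 each), and the change of -3.02 ± 0.26 (SE) equals a chronic level 0.124 times that of control sheep (limma adjusted p = 1.43e-05). On the right the decrease was -1.71 ± 0.26 (limma adjusted p = 0.00282), with 4.07, 3.48 and 3.21 in chronic and 5.30, 5.31 and 5.27 in control sheep. The 3 control sheep were nearly equal there and stood above all chronic sheep. The decrease was larger on the left, by -1.31 ± 0.27 in the test of the difference (limma adjusted p = 0.0469). Being close to the threshold, this call did not survive the omission of D16, D19, D20, C1, S3 or S4, at differences of -1.41 to -1.16, and also with library totals, quantile normalisation, no filter, voom or no replicate block, with limma adjusted p-values up to 0.765.

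ENSOARG00000007840 measured 7.41, 7.35 and 7.61 log2 CPM in D16, D19 and D20, against 9.33, 9.62 and 9.42 in C1, S3 and S4. The spread within each group was small beside the gap of 1.72 between them. Its values rest on 1392, 1060 and 1420 reads in chronic sheep and on 8679, 7606 and 5859 in control sheep. The means of 7.45 ± 0.14 in chronic and 9.46 ± 0.15 in control sheep (SD, n = 3 each) differed by -2.0 ± 0.19 (SE), a chronic level 0.25 times that of control sheep (limma adjusted p = 3.45e-05). The right appendage gave -1.85 ± 0.19 (limma adjusted p = 8.06e-05), and the difference of -0.15 ± 0.20 between the sides did not pass (limma adjusted p = 0.76).

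**Figure D3:**
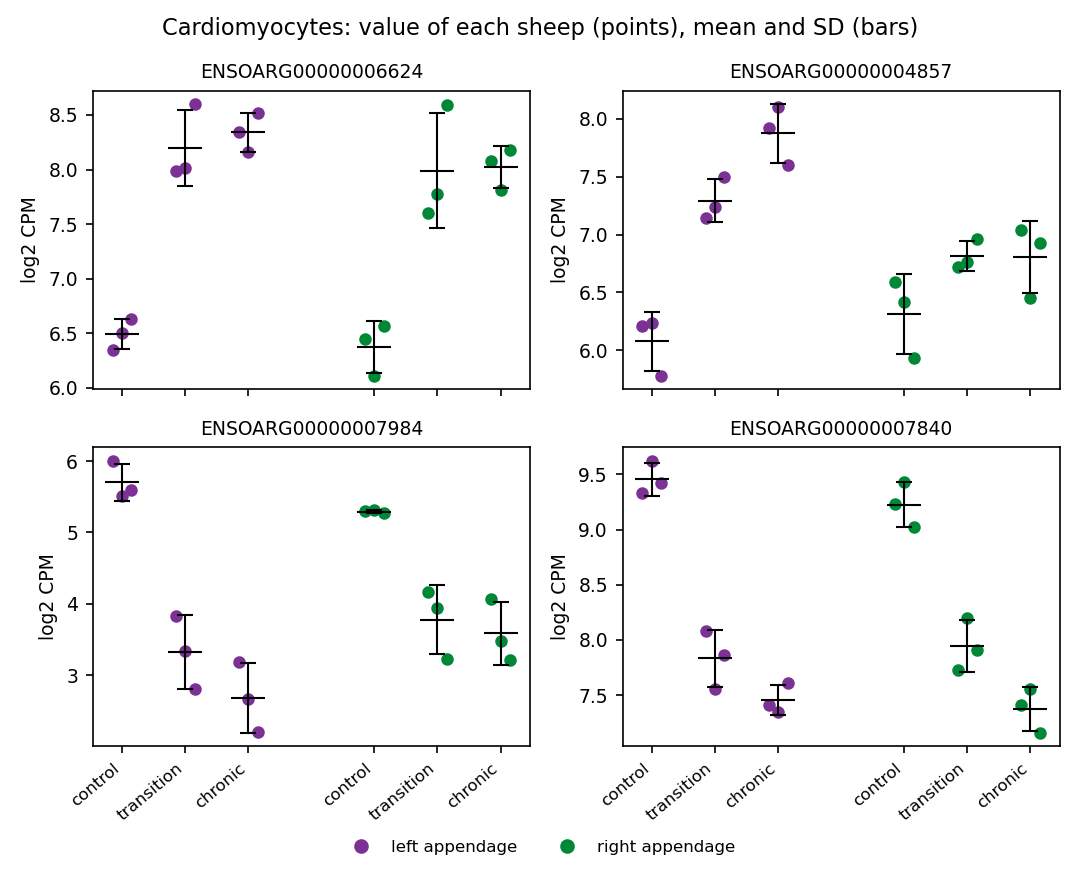
Levels of 4 genes in cardiomyocytes (log2 CPM, vertical axes, each with its own range) in control, transition and chronic sheep of the left (purple) and right (green) appendage, with a point per sheep and mean and SD as bars. For ENSOARG00000006624 and ENSOARG00000007840 the difference between the sides did not pass its test (0.20 and -0.15). ENSOARG00000004857 (difference of the changes 1.30) and ENSOARG00000007984 (-1.31) moved more on the left. The calls of these differences held in 10 and 4 of 15 alternatives.

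Whether the chronic changes were shared with the right appendage was asked over all genes. The right libraries came from the same 6 sheep, and there 633 genes (5.16%) passed between chronic and control sheep, 220 higher (1.79%) and 413 lower (3.36%). Of the 471 genes that rose on the left, 132 (28%) also rose on the right, which is 60% of the right list, and 0 fell. Of the 467 that fell on the left, 182 (39%) fell on the right, 44.1% of the right list, and 0 rose. The right changes of the genes that rose on the left had a median of 0.46 (range -0.64 to 6.88), against 0.79 on the left. For those that fell on the left the right median was -0.66 (range -7.92 to 0.50), against -0.95. Since the genes were chosen on the left, a smaller right median is a description and not a test.

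A gene that passed on the left and missed the threshold on the right is not thereby shown to differ, and the test of the difference itself called few genes. It found 44 genes (0.358% of those tested) whose chronic change differed between the appendages, 35 (0.285%) with the more positive change on the left and 9 (0.0733%) with the more negative one. Among the 339 genes that rose on the left without a call on the right, 20 passed this test, and among the 285 that fell without one, 7 did. For the other genes without a call on the right, a difference between the appendages did not pass the test, and equality was not shown either. The unadjusted p was under 0.05 for 1749 genes, where a share of about 0.05 of the genes tested would be so if none differed. Scaled by library totals, 19 genes passed, 9 positive and 10 negative, where the median difference of all genes shifted to -0.155. Without C1 only 1 gene passed, and without D16, D19, S3 and S4 the counts were 4, 2, 6 and 11, whereas 69 passed without D20 and 1 passed without the replicate block, that is, with no term for the animal in the model. The count of side differences thus moved with the sheep included and with the term for the animal, and the cause of these shifts was not tested.

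Of the 44 genes, 21 had risen on the left and 8 had fallen there, and 15 had no call on the left. The 21 changed by 0.41 to 2.66 on the left (median 1.02) and by -0.64 to 0.63 on the right (median -0.07), and 1 of them was also called higher on the right. The 8 changed by -3.02 to -0.95 on the left (median -1.47) and by -1.71 to 0.46 on the right (median -0.16), where 1 was also called lower. Over all 35 genes with a positive difference, the left changes were 0.04 to 2.66 and the right changes -1.18 to 0.63, and 4 were called lower on the right. Part of the positive differences therefore came with a decrease on the right. The side differences were chosen with these same values, so their sizes are descriptive.

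**Figure D4:**
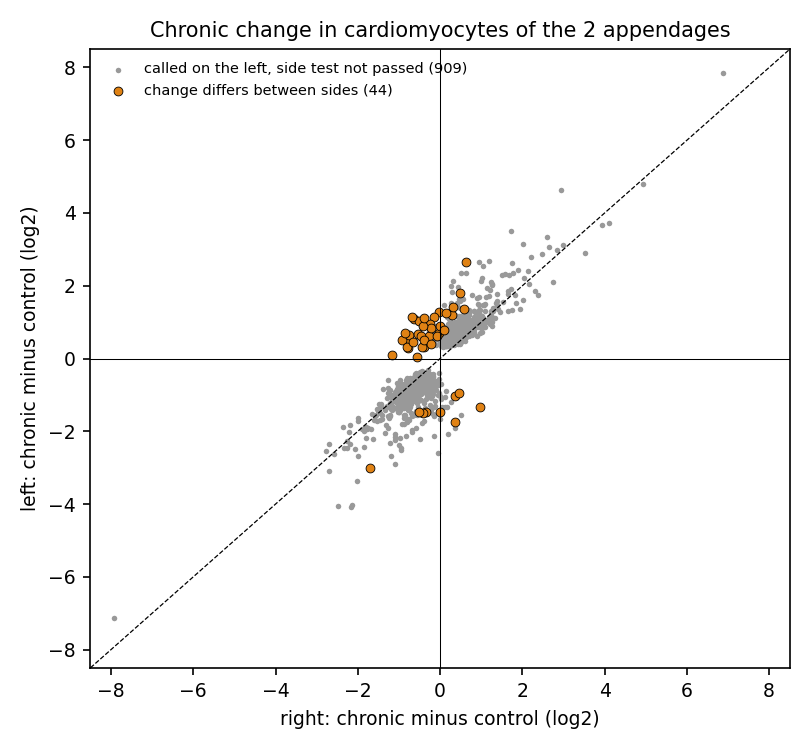
Chronic minus control change (log2) in cardiomyocytes of the left appendage (vertical axis) against the right appendage (horizontal axis), for genes called on the left or in the test of the difference; the dashed line marks equal change. The 44 genes whose change differed between the sides are orange, and the other 909 genes called on the left are grey.

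The left appendage changes were also set beside those of the transition sheep. These are other animals than the chronic sheep, and with no length of pacing given the values show no course in time. Their difference from control sheep shares the 3 control sheep with the chronic comparison, so values are given side by side without a test of likeness. The genes that rose in chronic sheep had a median change of 0.61 in transition sheep, against 0.79 in chronic sheep, both relative to control sheep. For the genes that fell the medians were -0.62 in transition and -0.95 in chronic sheep. All these genes were chosen by the chronic comparison, so medians nearer to the controls in transition sheep are a description and not a test. By animal, the genes that rose had a median difference from the control mean of 0.43 in D23, 0.72 in D24 and 0.67 in D27, and the genes that fell one of -0.46 in D23, -0.72 in D24 and -0.68 in D27. D23 stood nearest to the control sheep in both directions, and D24 was within the range of the chronic sheep for the genes that rose.

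The direct test between chronic and transition sheep on the left called 1 of 12279 genes (0.00814%; limma, Benjamini-Hochberg adjusted p of 0.05), and 865 genes had an unadjusted p under 0.05. If no gene differed, a share of about 0.05 of the genes tested would have such a p. The 865 genes are therefore not a count of differences. Without D23 the count was 15, with 12 higher and 3 lower in chronic sheep. Of the named genes, ENSOARG00000006624 had 7.99, 8.01 and 8.60 log2 CPM in transition sheep D23, D24 and D27, and its chronic minus transition difference was 0.14 ± 0.20 (limma adjusted p = 0.933). ENSOARG00000007840 had 8.08, 7.56 and 7.86 in these sheep, and a difference of -0.38 ± 0.19 (limma adjusted p = 0.728). Both thus had levels in transition sheep that were not told apart from the chronic ones at this number of animals.

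ENSOARG00000004857 lay between the states, at 7.14, 7.24 and 7.50 log2 CPM in transition sheep, with all 3 below the lowest chronic sheep and above the highest control sheep. Its chronic minus transition difference of 0.58 ± 0.20 did not pass (limma adjusted p = 0.567). ENSOARG00000007984 measured 3.83, 3.34 and 2.80 in D23, D24 and D27, overlapping the chronic sheep, and the difference of -0.64 ± 0.26 did not pass either (limma adjusted p = 0.642).

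The 1 gene that passed between chronic and transition sheep was ENSOARG00000002796, which falls below the median level, lies outside the naming rule and is named after its values were seen. It had 1, 0 and 0 reads in chronic sheep D16, D19 and D20, against 252, 98 and 148 reads in transition sheep D23, D24 and D27 and 151, 121 and 160 reads in control sheep C1, S3 and S4. The chronic libraries were nearly without reads of the gene, and no transition or control library was. Per listed read the summed control level was 326 times the chronic level (95% exact interval 58.3 to 12900, counting error only), from 432 reads in control and 1 read in chronic sheep. The transition level was 420 times the chronic one (75 to 16600). The limma change between chronic and transition sheep was -7.43 ± 0.52 (adjusted p = 7.93e-07), and between chronic and control sheep -7.13 (adjusted p = 1.51e-06). These fitted sizes depend on the 0.5 reads the authors added to each count, and with a pseudocount of 1 CPM the chronic minus transition change was -4.12.

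The same animals lacked the gene on the right. ENSOARG00000002796 had 0, 0 and 0 reads in right appendage cardiomyocytes of D16, D19 and D20, against 90, 114 and 301 in C1, S3 and S4. With a floor of 3 counts over the chronic group this is 133-fold lower. The lower 95% exact limit of the control level over the chronic level was 108, counting error only. The difference between the sides did not pass (limma adjusted p = 0.515). In whole tissue of the left appendage the chronic sheep split, with 285 reads in D15, 0 in D16 and 2 in D19, against 76, 165 and 212 in C1, S3 and S4. The right whole tissue gave 268 reads in D15, 0 in D16 and 0 in D19. D15 is a chronic sheep that is not among the cardiomyocyte samples, and its level lay above those of all 3 control sheep on both sides. Almost no reads were thus found in any library of D16, D19 and D20, though D20 has no whole tissue library. Among chronic sheep, only D15 had reads at the level of control sheep or above, and only in tissue. Chronic state and animal cannot be told apart for this gene in cardiomyocytes.

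The left appendage was also measured as whole tissue, in a table scaled separately, so levels are not compared between cells and tissue. Chronic tissue came from D15, D16 and D19 and control tissue from C1, S3 and S4, so 2 chronic and 3 control sheep were in both tables. Over the 11796 genes tested in both, 531 (4.5%) were higher and 371 (3.15%) lower in chronic than in control tissue. Of the genes that rose in cardiomyocytes 463 were tested in tissue, and 189 (40.8%) also rose there, 35.6% of the tissue list, while 0 fell and 274 passed in neither direction. Of the genes that fell 457 were tested, and 128 (28%) also fell in tissue, 34.5% of the tissue list, while 6 rose and 323 passed in neither direction. The median tissue change was 0.66 for the genes that rose and -0.53 for those that fell, beside -0.006 over all genes tested in both tables. The 6 genes that went opposite ways changed by -2.48 to -0.67 in cardiomyocytes and by 0.92 to 3.73 in tissue.

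**Figure D5:**
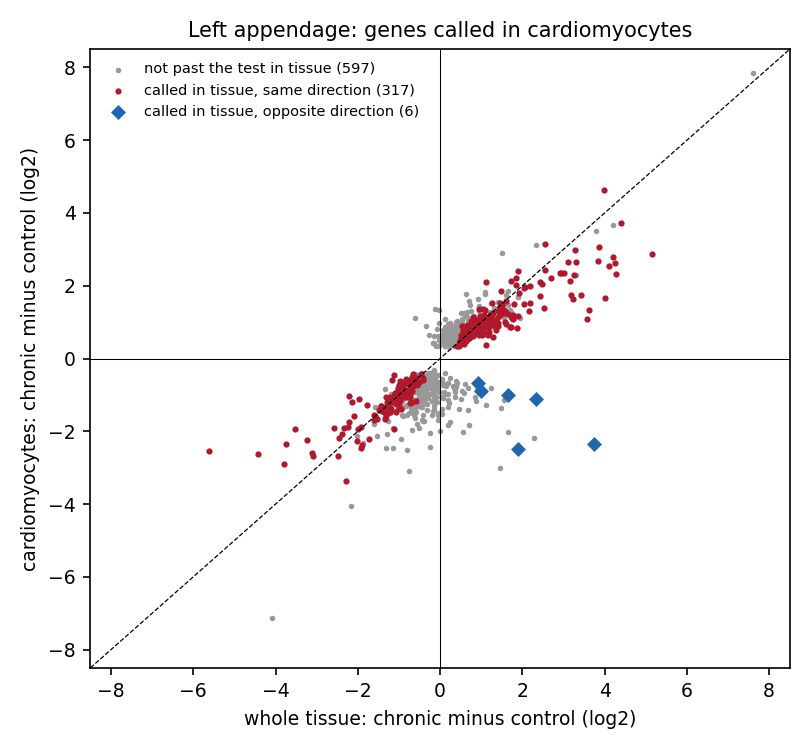
Chronic minus control change (log2) of left appendage cardiomyocytes (vertical axis) against left appendage whole tissue (horizontal axis) for the genes called in cardiomyocytes and tested in both tables; the dashed line marks equal change. Red points also passed in tissue in the same direction, the 6 blue diamonds passed in the opposite direction, and grey points did not pass in tissue.

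The named genes divided in tissue. ENSOARG00000006624 had 8.63, 8.24 and 7.90 log2 CPM in chronic tissue of D15, D16 and D19, against 6.51, 6.77 and 7.05 in control tissue of C1, S3 and S4, and rose by 1.48 ± 0.19 (limma adjusted p = 0.0004). ENSOARG00000004857 had 7.95, 7.90 and 8.17 in D15, D16 and D19, against 6.01, 6.51 and 5.76 in C1, S3 and S4, a rise of 1.91 ± 0.36 (limma adjusted p = 0.00571). Both increases of the cells were thus found in left tissue too, with no overlap of the groups. In right tissue ENSOARG00000004857 had 6.30, 7.85 and 7.22 in D15, D16 and D19, against 6.43, 6.49 and 6.26 in C1, S3 and S4. There D16 and D19 stood above the control sheep and D15 lay among them, and the change in right tissue was not tested.

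Neither decrease was. ENSOARG00000007984 was low in tissue of both groups, with 4.77, 1.88 and 0.94 log2 CPM in chronic tissue of D15, D16 and D19, against -0.35, 1.57 and 2.04 in control tissue of C1, S3 and S4, and its change of 1.44 ± 0.89 did not pass (limma adjusted p = 0.351). D15 alone stood above the rest. ENSOARG00000007840 had 4.93, 3.94 and 4.68 in chronic tissue, against 5.53, 4.0 and 4.0 in control tissue, groups that overlap, with a change of 0.01 ± 0.47 (limma adjusted p = 0.996).

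The calls of the 4 named genes held when any 1 sheep of the comparison was left out. These genes were chosen by their p in the same sheep, so this was close to given and is no support. The count of called genes, by contrast, fell with the number of animals. It was 488 without D16, 320 without D19, 627 without D20, 454 without C1, 454 without S3 and 464 without S4, beside 938 with all 6 sheep. With sample quality weights it was 1791.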

How the data were processed

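RNA libraries were prepared with a NEBNext Ultra kit, as the labels state. Tools listed in the submitters' processing notes are RSEM, cutadapt, bcl2fastq and limma, with no version. For the aligner, the genome build and the annotation, the sources used here give nothing. The deposited log2 values of cardiomyocytes and of whole tissue are log2 CPM with 1 column per sheep and appendage, each joining 2 technical replicates. All 238716 cardiomyocyte and 237366 whole tissue values equal log2 of a whole read number plus 0.5 over a scaled library size, within 0.05 reads, so reads were recovered from the values the authors deposited. Whether counting used strand is not given, and genes sharing reads with a near-identical or overlapping gene are uncertain.

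Genes with a mean under 0 log2 CPM over a table were left out. In R 4.3.3, limma 3.58.1 with a mean-variance trend was fitted to the deposited log2 values, with no further pseudocount, over 6 group means (3 states by 2 appendages, 18 columns, 3 sheep per group), which share 1 estimate of the spread. Sheep entered as a random effect, since both appendages of an animal are paired by the sheep names in the labels (consensus correlation 0.4703 in cardiomyocytes, 0.2937 in tissue). Adjustment was by Benjamini-Hochberg over all genes tested, with a threshold of 0.05, and the procedure was tested on simulated data. The changes planted there were larger than most of those called here, so the simulation does not bear on the smaller calls. Count models were not run because the deposited unit is log2. Exact Poisson-based intervals of read ratios cover counting error only.

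Named genes had to pass the threshold, lie above the median level and not overlap between groups; the 2 with the smallest p in each direction were named. The comparison, gene lists and tests were chosen with earlier results of these data known. The 13 pathway lists and 10 marker lists prepared hold symbols and could not be used, as 0 IDs were paired with a symbol by the files or the reference table of sheep genes. Alternatives were other scalings, filters, pseudocounts, weights, sets of samples in the model, the sheep term, and leaving out each sheep.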

Additional observations from a re-analysis of the deposited data

Results flagged for a closer look

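The chronic change differed between left and right appendage cardiomyocytes for 44 genes by the interaction test of limma, with 35 positive and 9 negative differences. Among the named genes, ENSOARG00000004857 changed more on the left, by 1.30 ± 0.21 (SE; limma adjusted p = 0.0181), with changes of 1.80 on the left and 0.49 on the right. ENSOARG00000007984 had a difference of -1.31 ± 0.27 (limma adjusted p = 0.0469), with changes of -3.02 on the left and -1.71 on the right. The call of ENSOARG00000004857 held in 10 of 15 alternatives and that of ENSOARG00000007984 in only 4 of 15. With 3 sheep in each group, no gap test for a single outlying value was made; the effect of leaving out each sheep and of sample quality weights is given with the alternatives.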

How the results depend on the processing

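The count of 938 genes between chronic and control sheep stayed within 1.5 times under other scalings, filters, a pseudocount of 1 CPM, voom, the left appendage fitted alone (788) or without the replicate block (952), and was 320 to 627 with a sheep left out and 1791 with sample quality weights. The 44 side differences became 19 with library totals, 26 with quantile normalisation, 89 with a mean of at least 2 log2 CPM, 1 without the replicate block, 168 with sample quality weights and 1 to 69 with a sheep left out; models of the left appendage alone could not give this value. Between chronic and transition sheep the 1 gene became 2 with no filter, the left appendage alone, its 6 columns alone, voom or sample quality weights, 0 with the stricter filter (mean of at least 2 log2 CPM, which leaves out ENSOARG00000002796), and 1 to 15 with a sheep left out; it was 1 without the replicate block. With the exceptions given, the cause of these shifts was not tested. The call of the side difference of ENSOARG00000004857 held in 10 of 15 alternatives (1.01 to 1.5) and that of ENSOARG00000007984 in 4 of 15 (-1.49 to -1.16). The chronic minus transition call of ENSOARG00000002796 held in all 16 that tested it (-7.87 to -4.12). The changes against control sheep of the 4 named genes kept direction and call under all 17 alternatives, with changes of 1.73 to 1.94 for ENSOARG00000006624, 1.65 to 1.93 for ENSOARG00000004857, -3.27 to -2.77 for ENSOARG00000007984 and -2.12 to -1.92 for ENSOARG00000007840. The 4 genes and ENSOARG00000002796 were chosen by their tests on these same values. That their calls held was therefore close to given and is no support. Calls of low genes are limited by depth, and 3 sheep per group limit all of them.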

Other observations

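ENSOARG00000002796 showed no intermediate level in cardiomyocytes. In the right appendage transition sheep D23, D24 and D27 had 381, 82 and 153 reads, beside 0, 0 and 0 in chronic sheep D16, D19 and D20. In whole tissue, transition sheep D24, D27 and D30 had 113, 196 and 151 reads on the left and 312, 271 and 164 on the right. Over all libraries of the cardiomyocyte and whole tissue tables, D16, D19 and D20 were the only sheep with 2 reads or fewer.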
